A study of Mus musculus with 27 samples.

Results

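The comparison was made between 2 populations of Prx1-expressing cells sorted from mouse periosteum: P1, which lacked CD105 and carried CD200 (CD105- CD200+), and P3, which carried CD105 (CD105+) with CD200 variable. Members were chosen by their sorting label alone, which gave 3 periosteum P1 and 3 periosteum P3 libraries out of 27, and all genes were compared. The animals were Prx1-CreER/Ai14/Rag1 mice, in which a tamoxifen-activated Cre driven by the Prx1 promoter switches on tdTomato from the Ai14 reporter. Rag1 loss leaves these mice without mature B and T lymphocytes, and this holds for P1 and P3 alike. Mice of both sexes aged 8 to 12 weeks received tamoxifen and were harvested 3 days after the last dose. Periosteum was scraped from femur and tibia and digested with collagenase, and cells that were tdTomato+ and CD45- were sorted. The other 21 libraries were periosteum P2 (CD105- CD200-) and P1, P2 and P3 of bone marrow and muscle, each in 3 replicates. Tissues came from within the same animals, but the labels do not say which animal gave which library, so p-values measure the spread between these libraries.

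The periosteum is the thin sheet that covers bone. Its inner layer holds skeletal progenitors and osteoblasts, and its outer layer holds fibroblasts, nerves and vessels. Prx1, encoded by Prrx1, is a homeobox factor of limb bud mesenchyme that marks skeletal stem and progenitor cells in the adult. CD105 is endoglin (Eng), a co-receptor for ligands of the TGF-beta family that is carried by stromal progenitors, by endothelial cells and by early erythroid cells. CD200 is a membrane glycoprotein that signals to myeloid cells and marks some skeletal stem cells. Osteoblasts lay down a matrix of type I collagen, which binds SPARC and osteocalcin and then mineralizes.

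Values are normalized counts as the authors scaled them. Totals were 12857600 to 13835900 in P1 and 9988960 to 11988800 in P3, with 13172 to 15052 and 12393 to 16582 genes above 0, and mitochondrial transcripts took 3.39% to 6.76% and 3.77% to 5.04%. Pearson correlations of log2 values between replicates were 0.595 to 0.691 in P1 and 0.551 to 0.720 in P3, against 0.872 to 0.934 for P1 and P3 of muscle and bone marrow. The periosteum libraries therefore varied more than the others, and the fit gave them variance weights of 0.378 (P1) and 0.307 (P3) against 0.939 to 3.91 for the groups of the other tissues. The entry named as a transgene had 13208, 19965 and 17453 normalized counts in P1 and 11165, 11837 and 6153 in P3. It was present in all 6 libraries and lower in each P3 library than in any P1 library.

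The genes of the sort followed the gates in part. Eng had 38.7, 159 and 10.4 normalized counts in P1 replicates 1 to 3 and 6206, 7328 and 3763 in P3. The P3 libraries were all high and the P1 libraries all low, with a log2 fold change of -7.05 ± 2.08 (SE), which did not pass in the limma fit (Benjamini-Hochberg adjusted p = 0.141) but did with the 6 libraries alone (adjusted p = 0.021). Fold changes are P1 minus P3 throughout, so that a negative value is higher in P3. Cd200 had 3972, 2614 and 2607 in P1 and 5554, 4326 and 3700 in P3. The groups overlapped, and the P3 values were not below those of P1 (-0.57 ± 1.59, adjusted p = 0.967). Prrx1 overlapped as well, with 4578, 1516 and 2544 in P1 and 1649, 2183 and 1153 in P3. Ptprc, which encodes CD45, was 0 to 9.85 in P1 and 2.80 to 19.7 in P3, too low to be tested. Transcripts of the Y-linked genes Uty, Ddx3y, Eif2s3y and Kdm5d were above 0 in all 6 libraries and overlapped between the groups.

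Of 12453 genes with at least 10 normalized counts in at least 3 of the 6 libraries, 66 passed the thresholds of the study (an adjusted p under 0.05 with a log2 fold change past 1.5 in either direction), which is 0.53% of those tested. Of these, 64 were higher in P3 (0.514%) and 2 were higher in P1 (0.0161%). The genes that rose in P3 included endothelial genes such as Esam and Tie1, erythroid genes such as Rhd and Slc4a1 and genes of DNA replication such as Gmnn and Uhrf1. Of the 64, 17 were on a fixed gene list and 47 on none. The 2 that were higher in P1 were Sparc, a collagen-binding protein of bone matrix, and Fabp3, a carrier of fatty acids. In 65 of the 66 no P1 library overlapped a P3 library, where over all genes tested 9.22% had all P1 libraries above all P3 libraries and 8.99% the reverse. The exception was Cab39l, chosen after its values were seen, with 9.28, 542 and 5.28 in P1 and 863, 2637 and 524 in P3. The 66 genes were called on the difference between these same libraries, so their lack of overlap is no separate evidence.

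The number of calls depended on how the spread was estimated and on single P3 libraries. With 1 spread for all 9 groups, 859 genes passed (6.9%), 305 higher in P1 (2.45%) and 554 higher in P3 (4.45%), and all 66 genes were among them. With the 6 libraries alone 51 passed (0.41%), 10 higher in P1 (0.0803%) and 41 higher in P3 (0.329%), and 17 of these were shared with the 66. Without P3 replicate 1 or without P3 replicate 3, a single gene passed, Esam in both cases, and without P3 replicate 2 the number was 202. The 9 periosteum libraries alone gave 110 (0.883%). At an unadjusted p under 0.05, 569 genes were higher in P1 (4.57%) and 712 higher in P3 (5.72%). Over the genes tested the log2 fold change had a median of 0.109, with 6644 genes above 0 and 5809 below. The plot of the change against the level shows the 2 sides of the comparison.

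**Figure D1:**
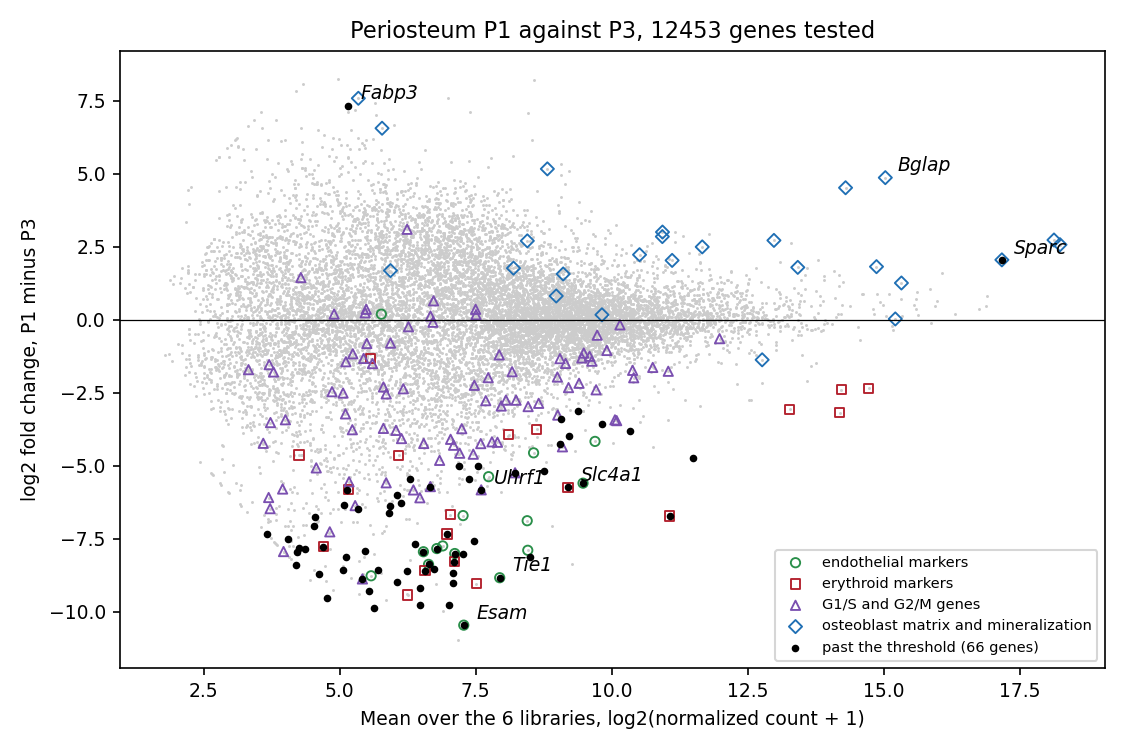
Log2 fold change (P1 minus P3, vertical axis) of each of the 12453 genes tested against its mean log2(normalized count + 1) over the 6 libraries (horizontal axis). Black points are the 66 genes past the threshold and open symbols the tested members of 4 groups of lists; the points past the threshold lie between -3.12 and -10.46 apart from Sparc and Fabp3, and osteoblast matrix genes lie mostly above 0 at high levels.

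The endothelial list held the most calls of any list, 7 of the 64 genes higher in P3. Endothelial cells line blood vessels and are recognised by junction proteins, receptors for angiopoietin and VEGF, and surface sialomucins. Of 16 tested genes on a list of 18 endothelial markers, 7 rose in P3 (Esam, Tie1, Emcn, Ptprb, Cdh5, Egfl7 and Pecam1). None of the 16 was called higher in P1, and 15 did not overlap with P3 above P1. Over all genes, 0.514% were called and 8.99% were without overlap in that direction. Of the 16, 15 had a log2 fold change below 0 and 1 above 0. Their median log2 fold change was -7.79, against 0.109 over all genes, and with 1 spread for all groups 14 of the 16 passed. A gene under 10 in every P1 library was tested only if all 3 P3 libraries reached 10. For such genes the lack of overlap followed from the filter and is no separate evidence. The sum of the list was 905 to 2153 normalized counts in P1 and 36467 to 67558 in P3. Erg and Robo4 were not tested. Erg was listed at 0 in all P1 libraries and in P3 replicates 1 and 2, with 8.06 in replicate 3, and Robo4 had 1717, 3.18 and 629 in P3 and at most 0.786 in P1. In bulk libraries, fewer cells of a type and less RNA per cell cannot be told apart.

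Esam (ENSMUSG00000001946), an adhesion molecule of endothelial tight junctions, had 11.4, 2.12 and 0.849 normalized counts in P1 and 8062, 4856 and 5083 in P3. P3 was high in all replicates and P1 close to 0, and the log2 fold change was -10.46 ± 1.20 (limma, adjusted p = 6.18e-05). Tie1 (ENSMUSG00000033191), an orphan receptor of the angiopoietin pathway, had 6.64, 10.4 and 16.5 in P1 and 5416, 6147 and 4366 in P3. The 3 P3 libraries lay close together, and the log2 fold change was -8.84 ± 1.48 (adjusted p = 0.00579). Pecam1, which encodes CD31, was present in P1 at 34.4, 253 and 118 and reached 8136, 4691 and 3176 in P3. The P1 libraries spread over a wider range than those of P3 on the log2 scale, and the change was -5.60 ± 0.94 (adjusted p = 0.00579). The VE-cadherin gene Cdh5, at 1.32 to 9.66 in P1 and 950 to 2092 in P3, changed by -7.95 ± 1.66 (adjusted p = 0.0215). Emcn, an endothelial sialomucin, had 6627, 405 and 2213 in P3, so that replicate 2 was the lowest, and at most 10.4 in P1 (-8.38 ± 1.57, adjusted p = 0.011).

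Other vessel genes that rose in P3 stood outside the list. Gpihbp1, which carries lipoprotein lipase to the capillary wall, had 4.84, 3.88 and 1.90 in P1 and 4922, 4526 and 2523 in P3 (-9.78 ± 2.29, adjusted p = 0.0473). Icam2, an endothelial adhesion molecule, was 2776, 632 and 903 in P3 and at most 2.08 in P1 (-9.29 ± 1.73, adjusted p = 0.011). Podxl, a sialomucin of endothelium and podocytes, was 2467, 1192 and 1118 in P3 and at most 5.13 in P1 (-8.97 ± 1.83, adjusted p = 0.0182). In all of these, replicate 1 of P3 was the highest library. Ushbp1 was 3017, 605 and 1871 in P3, 3.31 in P1 replicate 1 and listed at 0 in the other two P1 libraries. Myct1 was listed at 0 in all 3 P1 libraries and was 1247, 730 and 445 in P3, so no fold is given. Lrg1, a secreted glycoprotein of vessels and liver, had 2.69, 19.5 and 1.78 in P1 and 2857, 3273 and 3204 in P3 (-9.03 ± 1.51, adjusted p = 0.00579). Cd93, chosen after its values were seen, changed by -8.01 ± 1.43 (adjusted p = 0.00861), with 1817 to 3499 in P3 and 7.88 to 10.4 in P1. An entry for Ccl21a, a chemokine whose symbol another entry shares so that reads could be split, had 5375, 940.3 and 3611 in P3 and 0.901 to 3.75 in P1.

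The other 9 tested members of the list did not pass. Flt1, a VEGF receptor, had 5.48, 50.5 and 34.5 in P1 and 6927, 6340 and 3642 in P3. The groups were far apart in these 6 libraries, yet the log2 fold change of -7.90 ± 2.77 had an adjusted p of 0.247 in the limma fit of 9 groups and 0.0163 with the 6 libraries alone. Vwf, von Willebrand factor, had 12.1, 218 and 164 in P1 and 1614, 2026 and 1901 in P3 (-4.56 ± 1.44, adjusted p = 0.182). Periosteum P2, which also lacks CD105, had means of 5.38 ± 3.66 (SD, n = 3) for Esam and 66.7 ± 82.7 for Tie1.

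For each of 4 lists, 1 promoter is shown from the RefSeq table (build GRCm38.p6; the build behind the expression values is not given in the sources used here). It is that of the member with the highest level, genes past the threshold first, whose 250 bases before the start hold a motif of the factors known for the list, so that the match in it was a condition of the choice. For the endothelial list this was Tie1, whose 250 bases lie at chr4:118489850-118490099 on the minus strand. CAGGAA, a core bound by ETS factors and searched on both strands, was in 4 of the 7 endothelial promoters in the table (57.1%), in 25.7% of all promoters and in 26% of those of the genes tested. It stands in capitals, 209 bases before the start and as its reverse complement.
Tie1: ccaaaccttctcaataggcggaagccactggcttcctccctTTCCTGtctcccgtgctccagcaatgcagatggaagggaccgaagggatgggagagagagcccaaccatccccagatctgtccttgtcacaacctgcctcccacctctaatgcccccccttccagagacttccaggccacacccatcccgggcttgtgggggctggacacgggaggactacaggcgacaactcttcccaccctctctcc

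The erythroid list came next, with 6 of the 64 genes higher in P3. Erythroid precursors carry Rh proteins and the band 3 anion exchanger, and they make haem and globin. Of 19 tested genes on a list of erythroid markers, 6 rose in P3 (among them Rhd, Trim10, Rhag, Car2 and Slc4a1), none was higher in P1 and 17 did not overlap with P3 above P1, against the same 0.514% and 8.99%. Their median log2 fold change was -5.73, and 8 of the 19 passed with the 6 libraries alone and 18 with 1 spread for all groups. As for the endothelial list, the filter fixed the lack of overlap of members under 10 in every P1 library. The sum of the list was 15825 to 48798 normalized counts in P1 and 218996 to 249907 in P3. Globin transcripts took 0.118% to 0.339% of P1 libraries, 1.45% to 2.08% of P3 libraries and 24.1% to 38.6% of P2 libraries.

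Rhd, an Rh blood group protein, had 3.93, 2.22 and 6.09 normalized counts in P1 and 1868, 1271 and 2760 in P3. All P3 libraries were high and all P1 libraries near 0, and the log2 fold change was -8.60 ± 1.67 (limma, adjusted p = 0.0126). Replicate 2 was the lowest of the P3 libraries. Car2, carbonic anhydrase II, which osteoclasts use as well, had 50.6, 633 and 278 in P1 and 18882, 26763 and 20953 in P3 (-6.72 ± 1.17, adjusted p = 0.00793). Slc4a1, the band 3 exchanger, had 66.5, 441 and 16.5 in P1 and 3304, 3748 and 6361 in P3 (-5.73 ± 1.31, adjusted p = 0.0399). For both genes P1 replicate 2 was the highest P1 library. Cldn13, a claudin of haematopoietic tissue in rodents, had 5.43, 0.752 and 3.60 in P1 and 2360, 1660 and 2529 in P3 (-9.17 ± 1.39, adjusted p = 0.0041). The haem enzyme Alad, chosen after its values were seen, changed by -5.19 ± 1.08 (adjusted p = 0.0215).

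Some erythroid genes had no call. Klf1, the transcription factor that switches on adult globin, had 0.656, 2.22 and 3.56 in P1 and 2022, 2430 and 1628 in P3. The groups were far apart, with -9.43 ± 2.73 and an adjusted p of 0.127, or 0.0271 with the 6 libraries alone. Epor, the erythropoietin receptor, overlapped because P3 replicate 2 had 1.76 beside 460 and 673. The beta globin Hbb-bs had 9633, 11817 and 5107 in P1 and 48066, 38643 and 45340 in P3 (-2.39 ± 1.13, adjusted p = 0.464). P2 had means of 71064 ± 39843 (SD, n = 3) for Slc4a1 and 129249 ± 61419 for Car2. For Car2, Rhd, Slc4a1 and Cldn13 the order of the means, from low to high, was P1, P3 and P2, whereas Esam, Tie1, Gpihbp1 and Emcn were high in P3 and low in both P1 and P2. Not all erythroid genes had that order. Car1, chosen after its values were seen, had means of 9.45 in P1, 4184 ± 150 in P3 and 1069 ± 738 in P2. The means of Klf1 kept the order P1, P3 and P2, but with 2027 ± 401 in P3 and a wide spread in P2 (2398 ± 3034). The order of the 3 populations was not tested.

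The 250 bases before the start of Rhd, at chr4:134864286-134864535 on the plus strand of GRCm38.p6, are shown for the erythroid list by the same rule. AGATAA, the core bound by GATA factors, was in 6 of 14 erythroid promoters (42.9%), in 9.99% of all promoters and in 7.08% of those of the genes tested. It is in capitals, 43 bases before the start.
Rhd: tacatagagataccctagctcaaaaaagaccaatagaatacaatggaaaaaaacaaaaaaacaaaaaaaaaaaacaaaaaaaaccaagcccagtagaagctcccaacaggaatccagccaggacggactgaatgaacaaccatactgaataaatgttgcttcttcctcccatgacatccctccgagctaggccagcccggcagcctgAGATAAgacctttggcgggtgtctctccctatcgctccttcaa

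**Figure D2:**
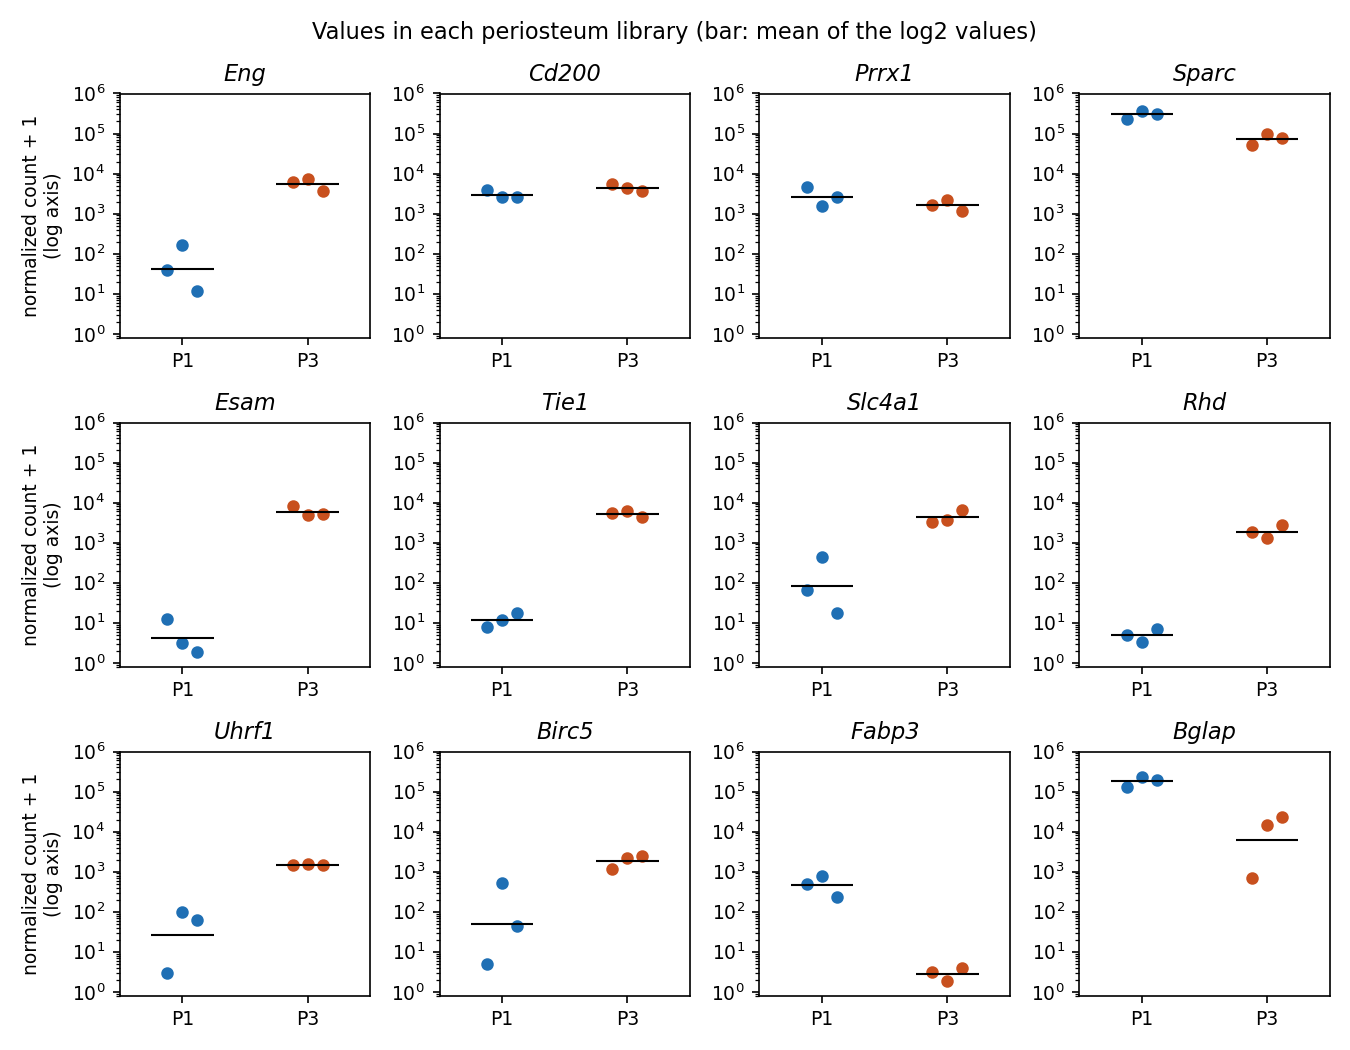
Normalized count + 1 (log axis) of 12 genes in the 3 P1 and 3 P3 periosteum libraries, 1 point per library in the order of the replicate numbers, with a bar at the mean of the log2 values. Eng, Esam, Tie1, Slc4a1, Rhd, Uhrf1 and Birc5 have all P3 points above all P1 points, Sparc, Fabp3 and Bglap have the reverse, and Cd200 and Prrx1 overlap.

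Genes of the cell cycle were higher in P3 in part. Cells copy their DNA with the MCM helicase, the PCNA clamp and their loaders in S phase and then divide with the kinases and kinesins of G2 and M. Of 42 tested G1/S genes, 3 rose in P3 (Gmnn, Uhrf1 and Chaf1b), and 25 did not overlap with P3 above P1, where 0.514% of all genes rose in P3 and 8.99% did not overlap in that direction. Of 48 tested G2/M genes, 1 rose in P3 (Birc5), and 24 did not overlap with P3 above P1. No gene of either list was called higher in P1 or was without overlap in that direction. The log2 fold change was above 0 for 4 of the G1/S and 5 of the G2/M genes. For members under 10 in every P1 library the filter again fixed the lack of overlap. The median log2 fold changes were -2.45 and -2.49, and with 1 spread for all groups 20 and 24 genes passed. Without P3 replicate 1 or without P3 replicate 3, no gene of either list passed, and without P3 replicate 2 the counts were 7 and 8.

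Gmnn, geminin, an inhibitor of origin licensing, had 1.31, 0.751 and 0.9 normalized counts in P1 and 629, 1542 and 820 in P3 (-8.88 ± 2.05, limma, adjusted p = 0.0421). Uhrf1 (ENSMUSG00000001228), which brings the maintenance DNA methyltransferase to new DNA, had 1.90, 95.7 and 60.4 in P1 and 1440, 1510 and 1440 in P3. The P3 libraries were nearly equal and P1 replicate 1 was the lowest library, with a change of -5.83 ± 1.23 (adjusted p = 0.0223). Chaf1b, a subunit of the chromatin assembly factor, was 4.96 to 21.7 in P1 and 628 to 810 in P3 (-5.71 ± 1.23, adjusted p = 0.0242). Birc5, survivin, had 4.04, 506 and 44.1 in P1 and 1176, 2130 and 2488 in P3. Its P1 libraries were spread widely, with P1 replicate 2 the nearest to P3 (-5.24 ± 1.19, adjusted p = 0.0396). Mcm7, a helicase subunit outside the list and chosen after its values were seen, had 65.8, 202 and 251 in P1 and 1891, 4181 and 1663 in P3 (-3.97 ± 0.78, adjusted p = 0.0126).

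Mki67, the Ki-67 antigen, did not pass, with 63.1, 244 and 292 in P1 and 1377, 1332 and 2228 in P3 (-3.27 ± 1.47, adjusted p = 0.434). Pcna had 1045, 1135 and 795 in P1 and 3231, 2966 and 2953 in P3 (-1.63 ± 0.64, adjusted p = 0.325). The libraries of both genes did not overlap. In P2, where the globin share was highest, Mki67 was 10842 ± 3191 (SD, n = 3). The part of erythroid cells in the cell cycle values was not tested. Of 13 tested genes on a list of cell cycle inhibitors and D cyclins, none passed, and the median was 0.196.

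For the G1/S list the rule gave Uhrf1. The 250 bases before its start lie at chr17:56303087-56303336 on the plus strand of GRCm38.p6. TTCCCGCC, an E2F site searched on both strands, was in 4 of 30 G1/S promoters (13.3%), in 1.86% of all promoters and in 4% of those of the genes tested. TTTGAA, the core of the cell cycle homology region, was in 20 of 43 G2/M promoters (46.5%), in 16% of all promoters and in 12.8% of those of the genes tested. The E2F letters are in capitals, 48 bases before the start.
Uhrf1: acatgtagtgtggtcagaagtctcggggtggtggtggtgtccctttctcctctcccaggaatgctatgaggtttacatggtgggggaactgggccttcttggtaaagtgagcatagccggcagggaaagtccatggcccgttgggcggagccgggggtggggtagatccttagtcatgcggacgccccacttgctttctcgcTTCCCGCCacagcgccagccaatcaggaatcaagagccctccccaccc

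The remaining genes that rose in P3 belonged to no fixed list in 47 of 64 cases. Nup210, a nuclear pore protein, was listed at 0 in P1 replicates 1 and 2 and had 0.753 in replicate 3, against 2542, 55.4 and 906 in P3. P3 replicate 2 was much lower than the other two (-8.72 ± 1.53, adjusted p = 0.00793). Gatm, which makes the precursor of creatine, had 220, 812 and 171 in P3 and at most 1.45 in P1 (-7.87 ± 1.37, adjusted p = 0.00793). Cyp4b1, a monooxygenase chosen after its values were seen, had 598, 525 and 879 in P3 and at most 1.27 in P1 (-8.56 ± 1.40, adjusted p = 0.00579). In 7 of the 64 no P1 library was above 1, so those fold changes follow the pseudocount.

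Higher in P1 were Sparc and Fabp3. Sparc (ENSMUSG00000018593), osteonectin, had 232022, 375508 and 312882 normalized counts in P1 and 51861, 95422 and 77790 in P3. Replicate 1 was the lowest and replicate 2 the highest in both groups, every P1 library was above every P3 library, and the log2 fold change was 2.05 ± 0.40 (limma, adjusted p = 0.0126, or 0.021 with the 6 libraries alone). P1 libraries had the higher totals, and Sparc did not pass with equal totals or with quantile normalization. It passed under 12 of 20 alternatives, with a log2 fold change of 1.34 to 2.24 and a limma adjusted p of 5.93e-06 to 0.298. Fabp3 (ENSMUSG00000028773) had 505, 792 and 233 in P1 and 2.04, 0.901 and 2.88 in P3. P3 was near 0 throughout, and the change was 7.33 ± 1.43 (adjusted p = 0.0126, or 0.0974 with the 6 libraries alone).

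Sparc was the 1 gene that passed among 25 tested genes of osteoblast matrix and mineralization. Of these 25, 16 had all P1 libraries above all P3 libraries (9.22% of all genes did), none had the reverse, 24 had a log2 fold change above 0 and the median was 2.23. With 1 spread for all groups 12 passed as higher in P1, and with the 6 libraries alone 2 did, Sparc and Serpinf1. None passed without P1 replicate 2 or 3, without P3 replicate 1 or 3, with equal totals, with quantile normalization or at an adjusted p below 0.01. The sum of the list was 1606630 to 3025260 in P1 and 242951 to 677844 in P3, with replicate 1 the lowest library in both groups. The P1 sums were therefore larger than the P3 sums without overlap, which was not tested as a sum.

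Col1a1, a chain of type I collagen, had 493351, 961564 and 853507 in P1 and 45531, 193629 and 157734 in P3 (2.73 ± 1.07, adjusted p = 0.328). Col1a2, the partner chain, had 514697, 986050 and 849775 in P1 and 60109, 211256 and 163037 in P3 (2.57 ± 0.80, adjusted p = 0.175). Neither gene overlapped between the groups. Bglap, osteocalcin, made by mature osteoblasts, had 132686, 234950 and 189423 in P1 and 689, 14972 and 23181 in P3. P3 replicate 1 stood far below the other two P3 libraries, and the change was 4.86 ± 1.71 (adjusted p = 0.247; 0.0995 with the 6 libraries alone). Alpl, the tissue-nonspecific alkaline phosphatase, had 14501, 25285 and 23237 in P1 and 3531, 7136 and 8152 in P3 (1.79 ± 0.75, adjusted p = 0.386). Ibsp, bone sialoprotein, overlapped, with 23002, 101367 and 110191 in P1 and 24803 to 29677 in P3 (1.26 ± 1.19, adjusted p = 0.823). Spp1, osteopontin, overlapped as well (0.03 ± 2.01, adjusted p = 0.999).

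The 250 bases before the start of Bglap, at chr3:88384467-88384716 on the minus strand of GRCm38.p6, are shown for the osteoblast matrix list. TGTGGT, the core bound by RUNX factors, was in 6 of 19 osteoblast matrix promoters (31.6%), in 14% of all promoters and in 12.6% of those of the genes tested. It is in capitals as its reverse complement, 132 bases before the start.
Bglap: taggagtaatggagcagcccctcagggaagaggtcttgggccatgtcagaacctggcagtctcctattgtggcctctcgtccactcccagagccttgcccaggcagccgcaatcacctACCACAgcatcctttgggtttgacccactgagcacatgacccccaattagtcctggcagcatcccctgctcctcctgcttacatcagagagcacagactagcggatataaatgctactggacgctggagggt

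With the 6 libraries alone, 10 genes passed as higher in P1. They were Cdo1, Ckap4, Col10a1, Crtap, Gpc1, Nupr1, Serpinf1, Sgms2, Slc36a2 and Sparc; those outside the naming rule were chosen after their values were seen. Crtap, a partner of the collagen prolyl 3-hydroxylase, had 2128, 2613 and 3962 in P1 and 378, 531 and 227 in P3 (2.97 ± 0.49, adjusted p = 0.049 in this fit). Serpinf1, the anti-angiogenic factor PEDF, which is mutated in a recessive brittle bone disease, had 66452, 53841 and 49531 in P1 and 13008, 20504 and 15220 in P3. Its libraries lay close within each group (1.82 ± 0.24, adjusted p = 0.021). Nupr1, a stress-induced chromatin protein, had 17241, 18566 and 16684 in P1 and 3677, 5514 and 4268 in P3 (1.98 ± 0.24, adjusted p = 0.0209). Sgms2, a sphingomyelin synthase of bone mineralization, had 1698, 5524 and 3965 in P1 and 269 to 491 in P3 (3.24 ± 0.54, adjusted p = 0.049). In the fit of 9 groups 9 of these 10 did not pass.

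None of 16 tested osteoblast transcription factors passed, and 14 had a log2 fold change above 0 with a median of 1.05. Sp7, osterix, had 1491, 1043 and 2078 in P1 and 125, 377 and 389 in P3, without overlap (2.48 ± 1.68, adjusted p = 0.681). Runx2, the master factor of the lineage, overlapped because P3 replicate 3 had 1306 beside 268 and 217, against 930 to 1319 in P1. Dlx5 had 1720, 560 and 999 in P1, and in P3 it was listed at 0 in replicate 2 with 551 and 526 in the other two. Of 11 tested osteocyte genes none passed (median 1.36). Dmp1, a matrix phosphoprotein of osteocytes, had 3132, 4467 and 4965 in P1 and 14.5, 2.61 and 492 in P3 (7.09 ± 2.70, adjusted p = 0.311). Phex, a protease of phosphate control, had 949, 2013 and 1793 in P1 and 7.23, 11.7 and 327 in P3 (5.54 ± 1.57, adjusted p = 0.12). For both, P3 replicate 3 was the highest P3 library. Sost, the sclerostin gene of mature osteocytes, was listed at 0 in all 6 libraries.

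None of 25 tested cartilage genes passed, 24 were above 0, 6 were without overlap with P1 higher (9.22% of all genes) and the median was 1.61. Col2a1, the collagen of cartilage, had 62224, 359279 and 75226 in P1 and 12002, 62110 and 83882 in P3. P1 replicate 2 was the highest and the groups overlapped (1.58 ± 2.37, adjusted p = 0.912). Sox9, the master factor of chondrocytes, had 883, 3608 and 1119 in P1 and 377 to 604 in P3 (1.73 ± 1.83, adjusted p = 0.854). Col10a1, the collagen of hypertrophic cartilage, had 3657, 19594 and 4022 in P1 and 1.49, 118 and 36.0 in P3. The groups were far apart, with 8.22 ± 5.11 and adjusted p = 0.634 in the fit of 9 groups and adjusted p = 0.049 with the 6 libraries alone. Again P1 replicate 2 was the highest library. Of 14 tested tendon and ligament genes none passed (median 0.87), and Tnmd, tenomodulin, overlapped with 2930 to 5843 in P1 and 1562 to 5197 in P3.

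Of 25 tested skeletal progenitor markers none passed, and they did not move together: 12 were above 0 and 13 below, with a median of -0.15. Cxcl12, the chemokine of the marrow niche, had 5623, 4051 and 9103 in P1 and 14272, 38432 and 30393 in P3. Every P3 library was higher, but the change of -2.11 ± 0.91 did not pass (adjusted p = 0.404). Kitl, stem cell factor, had 72.2, 54.2 and 206 in P1 and 666, 1273 and 601 in P3 (-3.09 ± 1.20, adjusted p = 0.327). Grem1, a BMP inhibitor of skeletal stem cells, was low in both, at 9.91 to 65.0 and 77.1 to 245. Lepr, the leptin receptor, overlapped (448 to 2436 in P1 and 387 to 3058 in P3), and so did Pdgfra (1460 to 4431 and 1569 to 3632) and Ly6a, which encodes SCA1 (3983 to 11611 and 9417 to 14252). Postn, periostin, overlapped with a wide range in P3 of 150 to 7784 against 2157 to 17113 in P1. Nt5e, which encodes CD73, had 1910, 1542 and 1869 in P1 and 648, 11.7 and 1145 in P3. None of 24 tested fibroblast and adventitial genes passed (median 0.60), and 21 were above 0. Dcn, decorin, had 106720, 95120 and 60752 in P1 and 36519, 60198 and 32245 in P3 (1.04 ± 0.63, adjusted p = 0.618), and Lum, lumican, 15826 to 37956 and 2444 to 11254 (1.76 ± 0.69, adjusted p = 0.333). Ly6c1, an endothelial and fibroblast surface protein, was the 1 gene of the list without overlap in the other direction, with 1217 to 6314 in P1 and 9722 to 21171 in P3.

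Signalling lists gave no call. TGF-beta and BMP genes (42 tested) had a median of 0.23, with 7 without overlap higher in P1 and 4 higher in P3, against 9.22% and 8.99% of all genes. Bmp4 overlapped, at 432 to 822 in P1 and 500 to 647 in P3 (0.04 ± 1.29, adjusted p = 0.999), and Tgfb1, a ligand that binds endoglin within its receptor complex, had 79.9, 64.0 and 147 in P1 and 22.9, 12.2 and 60.5 in P3. Wnt genes (32 tested) had the median furthest above 0 among the signalling lists, 1.40, with 25 above 0. Wif1, a secreted Wnt inhibitor of cartilage, overlapped with 2665 to 3258 and 1504 to 4690. Hedgehog (11 tested) and IGF and FGF genes (18 tested) had medians of 0.51 and 0.80, and Fgfr1 had 4344, 3953 and 5361 in P1 and 1483, 1852 and 960 in P3 (1.71 ± 1.15, adjusted p = 0.677). Notch genes (12 tested) had a median of -1.83. The ligand Jag2 had 0, 108 and 19.3 in P1 and 417, 756 and 306 in P3, and Notch4, a receptor of endothelium, at most 7.84 in P1 and 115 to 261 in P3. Neither passed (adjusted p = 0.549 and 0.508), and both passed with 1 spread for all groups.

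Osteoclast-regulating ligands (9 tested, median -0.60) gave no call either. Tnfsf11, which encodes RANKL, overlapped with 1.33, 104 and 201 in P1 and 350, 16.6 and 227 in P3. Il6 had 1.34, 40.1 and 16.0 in P1 and 164, 597 and 140 in P3 (-4.35 ± 1.81, adjusted p = 0.379). Proteases and inhibitors (20 tested, median 1.22) had 11 genes without overlap higher in P1 and 2 higher in P3, against 9.22% and 8.99% of all genes. Mmp14, a membrane collagenase, had 5020, 3737 and 11951 in P1 and 1099 to 1478 in P3 (2.28 ± 1.56, adjusted p = 0.685), and Mmp2, which it activates, 19758 to 35765 and 8443 to 17173 (1.14 ± 0.69, adjusted p = 0.618). Basement membrane genes (13 tested) had a median of -0.63, and Col4a1 was 1986 to 6328 in P1 and 10376 to 18006 in P3 (-2.16 ± 1.84, adjusted p = 0.784). MHC and interferon genes (13 tested) had a median of -2.05 and, against 8.99% of all genes, 8 genes without overlap higher in P3. Of these, H2-D1 was 14496 to 22406 in P1 and 26674 to 39704 in P3 (-0.69 ± 0.54, adjusted p = 0.749). Immediate early and heat shock genes (19 tested), which respond to dissociation, had a median of 0.19, with Egr1 at 25387 to 35873 in P1 and 8375 to 15477 in P3 (1.54 ± 1.84, adjusted p = 0.879).

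**Figure D3:**
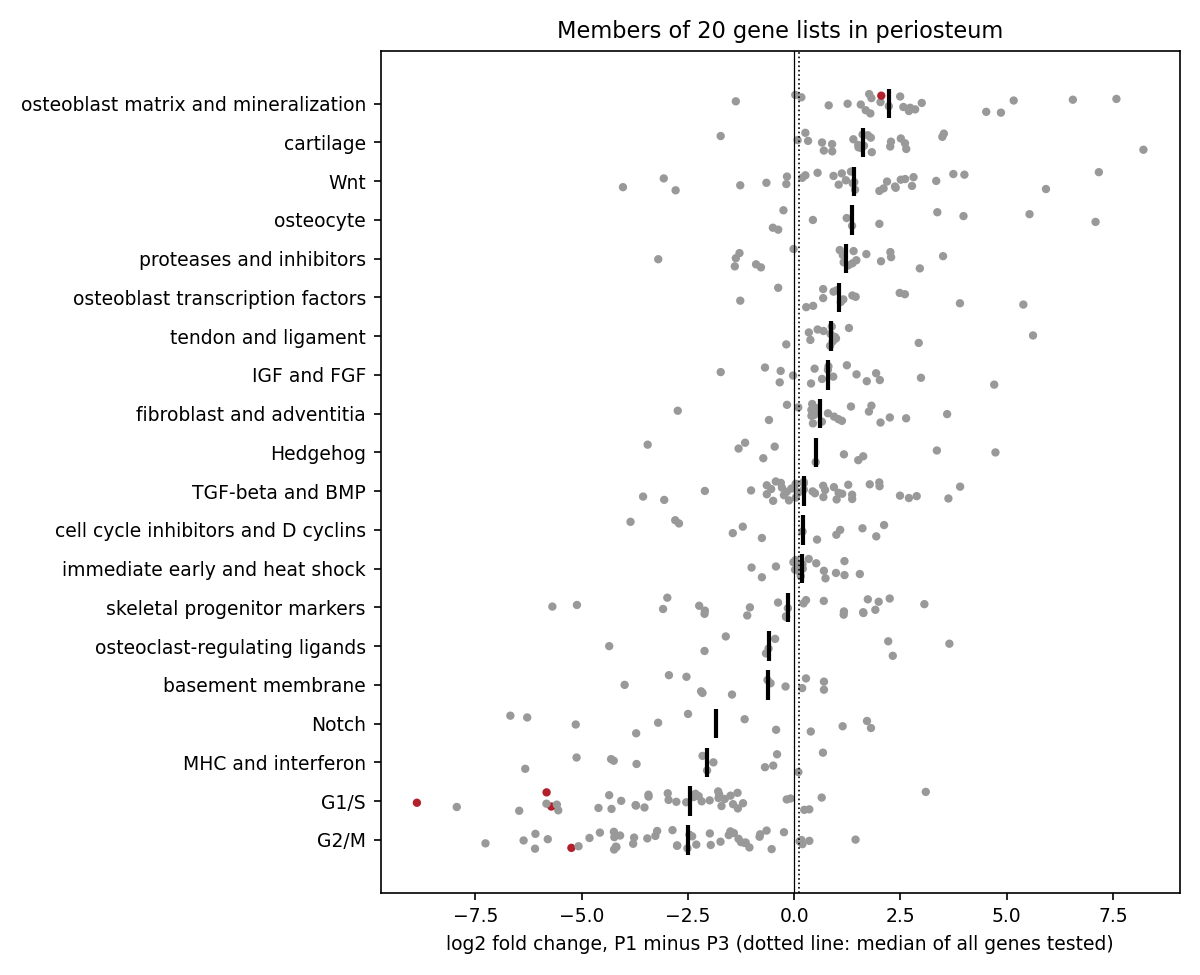
Log2 fold change (P1 minus P3) of each tested gene of 20 lists, 1 row per list, with the list median as a bar, a dotted line at the median of all genes tested (0.109) and the genes past the threshold in red. Medians run from -2.49 for G2/M to 2.23 for osteoblast matrix and mineralization, and red points appear in those lists and in G1/S.

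Marker lists of other cell types described the content of the gates. Leukocyte markers were low in both, with sums of 452 to 751 normalized counts in P1 and 1520 to 2947 in P3. Only 7 of 23 genes reached the minimum for a test, 3 were listed at 0 in all 6 libraries, and Fcer1g, a receptor chain of myeloid cells, had 1.38, 145 and 14.6 in P1 and 1302, 493 and 658 in P3. The 8 osteoblast markers were all above 0 (median 2.61), 6 without overlap with P1 higher (9.22% of all genes), with sums of 669626 to 1330320 in P1 and 75766 to 241170 in P3. Chondrocyte markers summed to 67486, 420929 and 84850 in P1 and 14173 to 93488 in P3, so P1 replicate 2 stood out. Mural sums were 8810 to 13153 in P1 and 12354 to 15758 in P3, Schwann sums 5660 to 9544 and 4657 to 6288, adipocyte sums 8507 to 16947 and 16717 to 20483, and muscle fibre sums 310 to 1084 and 391 to 846. These 4 overlapped between the groups. Osteoclast sums were 4204 to 5714 in P1 and 4004 to 15466 in P3, where replicate 2 was the highest with 12783 for Mmp9 alone. Ctsk, a collagen-cleaving protease of osteoclasts and periosteal stem cells, had 3791, 3349 and 3096 in P1 and 1551, 885 and 2544 in P3 (1.16 ± 0.97, adjusted p = 0.776). Satellite cell sums were 515 to 1397 in P1 and 1664 to 4371 in P3 without overlap, with 4 of 9 genes tested and Vcam1, which stromal and endothelial cells express too, as the gene with the highest level. Calcr, on both the osteoclast and satellite lists, was listed at 0 in P1 replicate 1 and in P3 replicates 1 and 3. No gene of the leukocyte, osteoblast, chondrocyte, mural, Schwann, adipocyte, muscle fibre, osteoclast or satellite cell lists passed. Fabp4, on the adipocyte list, was nevertheless far apart, with 15.4, 57.4 and 40.3 in P1 and 13920, 10581 and 9903 in P3. Its change of -8.38 ± 2.75 had a limma adjusted p of 0.209 in the fit of 9 groups and 0.00318 with the 6 libraries alone. The part of endothelial and erythroid cells in the other differences was not tested.

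**Figure D4:**
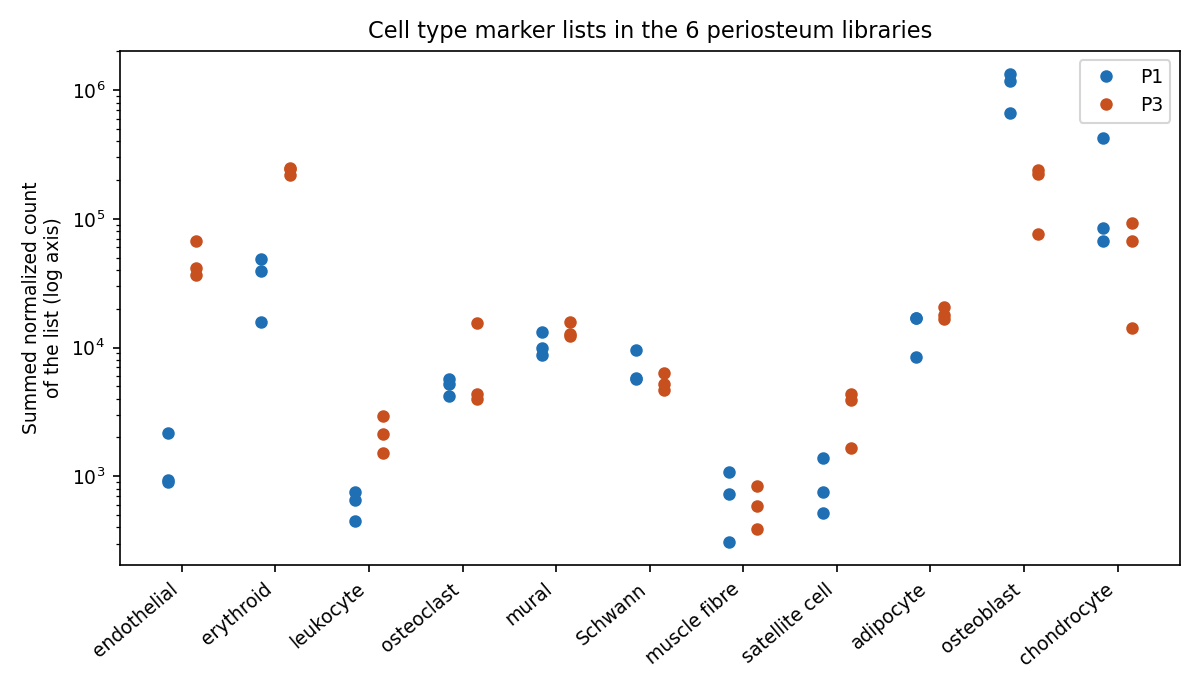
Summed normalized count (vertical axis, log scale) of each of 11 marker lists (horizontal axis) in the 3 P1 and 3 P3 periosteum libraries, 1 point per library. The endothelial, erythroid, leukocyte and satellite cell sums of all 3 P3 libraries lie above those of P1, the osteoblast sums of all 3 P1 libraries lie above those of P3, and the other lists overlap.

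The same comparison in the other tissues gave more calls over the same 12453 genes, 821 in muscle (6.59%) and 2862 in bone marrow (23%). Of the 64 genes higher in periosteum P3, 40 also rose in P3 of muscle, where 4.26% of all genes did, and 55 in P3 of bone marrow, where 10.1% did. No libraries are shared between these comparisons, but all were contrasts of 1 fit with 1 variance per gene. The tissues also came from the same animals, so the shared calls are not independent. Sparc was higher in P1 of bone marrow (5.31 ± 0.16, limma, adjusted p = 4.34e-18) and had 0.62 ± 0.13 in muscle, and Fabp3 was higher in P1 of both (3.94 ± 0.46 in muscle and 5.92 ± 0.58 in bone marrow). In muscle 2.33% of all genes were called higher in P1, and in bone marrow 12.9%.

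The difference between tissues was tested as such. Against muscle 13 genes passed (0.104%), 12 more strongly on the P3 side in periosteum (0.0964%) and 1 on the P1 side (0.00803%). Nup210 had a log2 fold change of -8.72 ± 1.53 in periosteum and 2.25 ± 0.50 in muscle, where it was higher in P1, and Gatm -7.87 ± 1.37 and 1.99 ± 0.45. Both therefore had opposite directions in the 2 tissues, each past the threshold in both. Esam was higher in P3 of both tissues, with -10.46 ± 1.20 in periosteum and -2.55 ± 0.39 in muscle, and Mcm7 had -3.97 ± 0.78 and 0.90 ± 0.25. Against bone marrow 11 genes passed (0.0883%), 10 on the P3 side (0.0803%) and 1 on the P1 side (0.00803%). Sparc was among them, since the P1 excess was smaller in periosteum (2.05 ± 0.40) than in bone marrow (5.31 ± 0.16). Serpinf1 and Dcn, with 1.82 ± 0.61 and 1.04 ± 0.63 in periosteum and 6.05 ± 0.25 and 5.42 ± 0.25 in bone marrow, followed the same pattern. Jam2, a junction molecule, had 407, 419 and 409 in periosteal P1 and 4306, 2502 and 2900 in P3 (-2.93 ± 0.99), and 4.07 ± 0.40 in bone marrow. Without periosteum P3 replicate 1 the 2 counts were 0 and 1, and without replicate 3 they were 3 and 2.

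**Figure D5:**
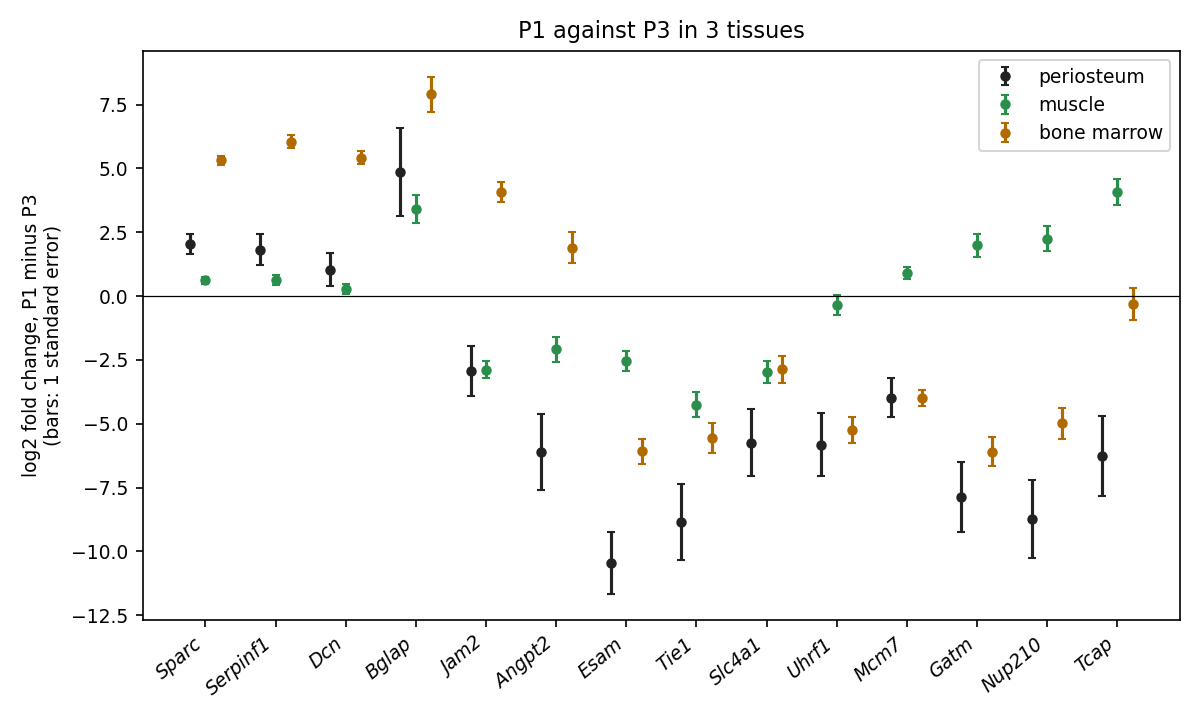
Log2 fold change (P1 minus P3, with bars of 1 SE) of 14 genes in periosteum, muscle and bone marrow. Esam, Tie1 and Slc4a1 lie below 0 in all 3 tissues, Sparc and Bglap lie above 0 in all 3, and Gatm, Nup210 and Tcap lie below 0 in periosteum and above 0 in muscle.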

How the data were processed

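Libraries were made from sorted cells with a SMART-Seq cDNA kit and Nextera XT. The authors trimmed reads with Trim Galore, aligned them with STAR and normalized counts with DESeq2. The genome build, annotation and counter are not given in the sources used here. The deposited values are normalized counts (a signal that is never negative) for 30154 entries in 27 libraries, of which 3 have no symbol, 1 is named as a transgene and 185 share a symbol. Whole reads could not be recovered from them, so read depth and counting error are unknown and a count test was not possible.

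Genes with at least 10 in at least 3 of the 6 periosteum P1 and P3 libraries were kept (12453), and log2(normalized count + 1) was fitted with limma 3.58.1 in R 4.3.3: 9 group means over 27 libraries, 1 variance weight per group (arrayWeights), eBayes with a trend and Benjamini-Hochberg adjustment over all genes kept. Fold changes on this scale understate the change of low genes. A call needed an adjusted p under 0.05 and a log2 fold change past 1.5 in either direction. Weights were used because periosteum libraries varied more than the others; an earlier analysis of these data had used no weights. Differences between tissues were contrasts of the same fit.

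Named genes were the 12 largest changes in each direction among calls without overlap and with a mean of at least 100, the sorting genes, genes the study names, for each list the 3 with the highest level and the 3 calls with the largest change, and the 5 largest tissue differences; a selection is given, and others are said to be chosen after their values were seen. The comparison, the 32 lists and the naming rule were chosen with earlier results of these data known. Replicate numbers were not used as pairs. Residuals of P1 and P3 libraries with the same number had r of -0.026, -0.034 and 0.038. With 3 libraries per group this cannot tell whether they shared animals. The labels do not tie libraries to animals; the legends of the study give 3 mice per group. Alternatives were other pseudocounts, filters, scalings, thresholds and fits, a replicate block and each library left out in turn. Lists and promoter motifs were handled with Python 3.11.15, pandas 2.3.3 and matplotlib 3.10.9.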

Additional observations from a re-analysis of the deposited data

Results flagged for a closer look

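The results below differed between tissues by a test of the difference itself (limma, contrasts of the P1 minus P3 changes, Benjamini-Hochberg adjusted p below 0.05). Against muscle 13 genes passed, and the largest differences with a mean of at least 100 in a group were -10.96 for Nup210, -10.32 for Tcap, -9.85 for Gatm, -8.36 for Ska1 and -8.09 for Ddias, with 7.64 for Aldh3a2 in the other direction. Nup210, Tcap, Gatm, Ska1 and Ddias were at or near 0 in periosteal P1, so the size and rank of their differences depend on the pseudocount. Tcap, a protein of the muscle Z-disc, had 0, 0.746 and 0 normalized counts in periosteal P1 and 157, 339 and 13.2 in P3, with a change of -6.24 ± 1.56 (SE) in periosteum and 4.07 ± 0.51 in muscle. Ddias, which protects dividing cells from DNA damage, was at most 0.662 in periosteal P1 and 203 to 388 in P3. Ska1, of the kinetochore, was listed at 0 in all periosteal P1 libraries and was 158, 159 and 33.8 in P3. Aldh3a2, a fatty aldehyde dehydrogenase, had 513, 394 and 261 in periosteal P1 and 0, 0.734 and 86.3 in P3.

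Against bone marrow 11 genes passed, with -8.80 for Hspb2, -8.11 for Lysmd4, -7.996 for Angpt2, -7.00 for Jam2 and -5.28 for Pdgfrl, and 8.01 for Ssx2ip in the other direction. Angpt2, an angiopoietin released by endothelium, had 1.04, 10.7 and 9.03 in periosteal P1 and 605, 615 and 203 in P3 (-6.09 ± 1.49), against 1.90 ± 0.60 in bone marrow. Hspb2 and Pdgfrl overlapped between P1 and P3 of periosteum (-2.98 ± 1.63 and 0.70 ± 0.90) and were higher in P1 of bone marrow (5.82 ± 0.66 and 5.98 ± 0.36). Ssx2ip had 50.9, 179 and 154 in periosteal P1 and 0.486, 0 and 11.3 in P3. Lysmd4 was listed at 0 in all periosteal P1 libraries and was 260, 99.97 and 162 in P3, so the size of its difference depends on the pseudocount too.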

How the results depend on the processing

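Counts are given for both directions, with those higher in P1 and in P3 in brackets, and then for the difference from muscle and from bone marrow. They were 38 (2 and 36), 12 and 13 with a pseudocount of 0.1, 117 (6 and 111), 9 and 12 with a pseudocount of 5, 85 (5 and 80), 14 and 14 with no filter, 137 (16 and 121), 27 and 35 with the filter over all 27 libraries, and 56 (2 and 54), 7 and 8 with a mean of at least 50. They were 859 (305 and 554), 56 and 103 with 1 spread for all groups, 72 (7 and 65), 13 and 11 without a trend, 85 (1 and 84), 15 and 11 with equal totals, 134 (14 and 120), 29 and 59 with quantile normalization, 66 (2 and 64), 13 and 11 with a log2 threshold of 1, and 15 (0 and 15), 5 and 5 with an adjusted p below 0.01. The 6 libraries alone gave 51 (10 and 41) and the 9 periosteum libraries 110 (10 and 100). With the replicate number as a block they were 62 (4 and 58), 13 and 4, and 53 genes were shared. Leaving out 1 library gave 1 to 202 (0 to 20 and 1 to 182), 0 to 48 and 1 to 25. The cause was not tested.

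Among list calls, endothelial genes higher in P3 ranged from 1 to 14, erythroid from 0 to 18, G1/S from 0 to 20, G2/M from 0 to 24 and osteoblast matrix genes higher in P1 from 0 to 12. Of 1240 values of 62 named genes under 20 alternatives, none changed sign, 974 kept their side of the threshold, 202 were no longer past it and 64 came past it. Equal totals moved the median of all genes from 0.109 to -0.22. The 3 libraries per group, their spread and the unknown read depth limit what could be detected.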
